A study of Capra hircus with 6 samples.

Results

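TFPI2 and 8 further genes whose products restrain or carry out breakdown of the extracellular matrix were followed in preadipocytes from goat muscle, the precursors of intramuscular fat cells. The 9 genes were picked by gene name from the 27271 genes of the deposited table, and each name was found there once. TFPI2 was picked for its higher level in the LIPG-silenced libraries, so its difference between the groups is given as a description and without a test. The other members are the inhibitors TFPI, SERPINE2, TIMP1, TIMP2 and TIMP3 and the proteases MMP2, MMP14 and PLAU.

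Cells from the longissimus dorsi muscle of 3-day-old Jianzhou goats were grown as primary cultures and transfected with siRNA, either a negative control (NC groups, n = 3) or one directed at LIPG (Si-LIPG groups, n = 3). LIPG encodes endothelial lipase. Both groups were then kept for 48 h in induction medium containing 50 μmol/L oleic acid before poly(A) RNA was sequenced. A single siRNA sequence stands for the silencing. The study calls its replicates biological, but whether those of a group came from separate goats or cultures is not stated, so p values measure only the spread between these libraries.

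Matrix is removed mainly by metalloproteases and by plasmin, a serine protease. MMP14 sits in the cell membrane and, with TIMP2 as a bridge, activates MMP2, which cleaves basement membrane collagen. PLAU, the urokinase-type plasminogen activator, turns plasminogen into plasmin. The TIMPs block metalloproteases, and TIMP3 binds to the matrix and also blocks several ADAM and ADAMTS enzymes. TFPI2 carries Kunitz domains, is secreted into the matrix and blocks plasmin and trypsin, whereas its relative TFPI blocks the start of blood coagulation. SERPINE2 is a serpin that blocks thrombin, urokinase and plasmin. Such enzymes remodel the matrix while preadipocytes turn into adipocytes.

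Sequencing gave 36451898 to 52638817 reads per library, of which 524776 to 703680 were counted on genes in the NC groups and 864882 to 1051230 in the Si-LIPG groups. The share on genes did not overlap between the groups, at most 1.53% in an NC library and at least 1.80% in a Si-LIPG library. Reads that lay on no gene feature made up 91.62% to 93.67% per library, and reads that were not aligned 0.909% to 1.22%. The protocol keeps the strand of the RNA, and the strand setting of the counting is not given in the sources used here. ND6, which is read from the mitochondrial strand opposite to most others, had 22.6 to 99.3 times as many counts per kb as the median of 12 other mitochondrial protein genes. Whether the counted reads lie on the strand of the genes or on the opposite strand was not tested. If they lie on the opposite strand, the counts, CPM values and zeros given here do not measure the transcripts of the named genes. The silenced gene LIPG had 0 to 2 counts per library, within the limit of 3 counts that a count of 0 allows, and gives no check of the labels. All directions given here therefore rest on the sample titles. Among mesenchymal markers COL1A1, COL1A2, PDGFRA, NT5E and DCN were counted in every library, but the preadipocyte marker DLK1 was at 0. PPARG had 2 to 14 counts per library, ZNF423 had 0 to 8 and LY6E had 0 to 12. COL1A1 and COL1A2 carried most of the marker counts, with 2841 and 2716 in NC 1, where ENG came next with 310. Summed over the 14 mesenchymal markers in the files, counts per 1e6 reads on tested genes after TMM normalization (CPM) ran from 19830 to 26760 in the NC groups and from 27040 to 33610 in the Si-LIPG groups. The 7 myogenic markers, with MYF6 at 0, summed to 165.5 to 275.6 and 238.1 to 269.7, and the 5 of pericytes and smooth muscle, with RGS5 at 0, to 7834 to 8294 and 6184 to 8242. Adipocyte markers, with LPL at 0, reached at most 19.8, endothelial ones, with CDH5, KDR, TEK and CLDN5 at 0, at most 7.21, and leukocyte ones, with PTPRC, ITGAM and CD3E at 0, at most 29.2. In bulk RNA, fewer cells of a type and less RNA per cell cannot be told apart.

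TFPI2 was higher in each Si-LIPG library than in each NC library. It had 12 counts in NC 1, 21 in NC 2 and 70 in NC 3, against 119 in Si-LIPG 1, 254 in Si-LIPG 2 and 306 in Si-LIPG 3. The exact 95% Poisson interval of the 12 counts is 6.2 to 21 and that of the 306 counts is 273 to 342, which covers counting error only. The TMM scale treats most genes as equal between libraries. On it TFPI2 had 38.9 CPM in NC 1, 37.8 CPM in NC 2 and 110 CPM in NC 3, against 134, 207 and 224 CPM for Si-LIPG 1 to Si-LIPG 3. NC 3 lay nearer to Si-LIPG 1 than to the other NC libraries. Means were 62.4 ± 41.5 CPM (SD, n = 3) in NC and 188 ± 47.5 CPM (SD, n = 3) in Si-LIPG, a ratio of 3.02. The fitted log2 fold change, Si-LIPG over NC, was 1.56 with a standard error of 0.43, rank 312 from the top among the 6574 tested genes.

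**Figure D1:**
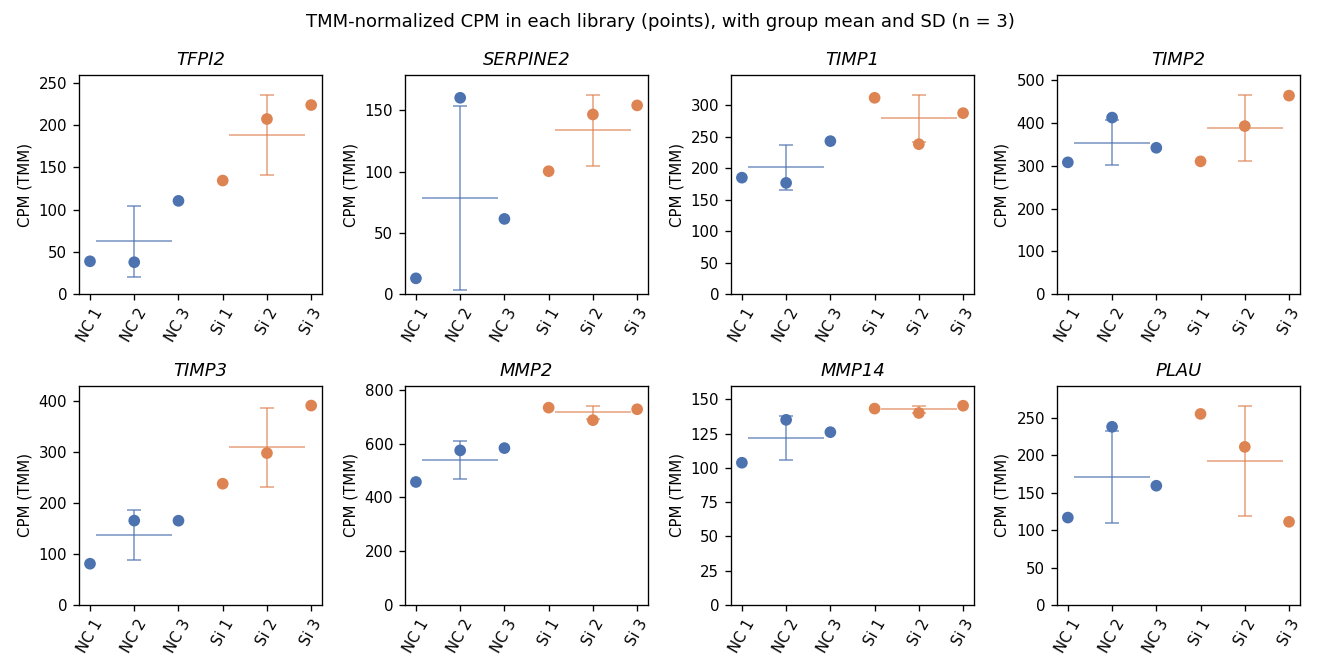
TMM-normalized CPM (vertical axes, linear and starting at 0) of the 8 members with counts, in NC libraries (blue) and Si-LIPG libraries (orange, Si). Each point is a library, and the bars give the group mean and SD (n = 3). TFPI2, TIMP3, MMP2 and MMP14 do not overlap between the groups, and TFPI2 has a mean of 62.4 in NC and 188 in Si-LIPG.

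TFPI2 moved along with the percentage of reads that fell on genes. That percentage was 0.997, 1.41 and 1.53 for NC 1 to NC 3 and 1.80, 2.63 and 2.88 for Si-LIPG 1 to Si-LIPG 3, an order that the TFPI2 levels follow except between NC 1 and NC 2. When edgeR was fitted with the log2 of this percentage as a covariate, the log2 fold change of TFPI2 was 0.36 (standard error 0.56). The percentage did not overlap between the groups, so with 6 libraries this fit cannot fully separate it from the groups. Scaling mattered too, with a TFPI2 log2 fold change of 2.13 for unadjusted library sizes and 2.98 for scaling to every read in the files. All genes shifted together under these scalings. Their median log2 fold change was 0.16 under TMM, 0.74 under unadjusted library sizes and 1.58 under scaling to every read. The distance of TFPI2 above that median was between 1.38 and 1.40 on the log2 scale in all 5 scalings. This follows from the shared shift and is no check on the TFPI2 difference. Leaving out NC replicate 3 gave TFPI2 a log2 fold change of 2.30, and leaving out any other library gave 1.28 to 1.70.

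TFPI, the relative of TFPI2 that acts on coagulation, had 0 counts in all 6 libraries. A count of 0 allows up to 3 counts, or 4.73 to 9.73 CPM per NC library and 2.19 to 3.39 CPM per Si-LIPG library. A change of TFPI was therefore not detectable at these counts.

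SERPINE2 had the widest NC spread of the tested members relative to its mean. NC 1 had 13.0 CPM, from 4 counts, NC 2 had 160 CPM and NC 3 had 61.5 CPM. Si-LIPG 1 had 100 CPM, Si-LIPG 2 had 147 CPM and Si-LIPG 3 had 154 CPM, all below NC 2. The log2 fold change was 0.73 with a standard error of 0.54 (adjusted p = 0.495, edgeR's quasi-likelihood test, Benjamini-Hochberg over all tested genes). Leaving out NC replicate 1 gave 0.28 and leaving out NC replicate 2 gave 1.73, and the value was -0.74 with the percentage of reads on genes in the model.

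Of the TIMPs, TIMP3 did not overlap between the groups and TIMP1 and TIMP2 did. TIMP3 had 81.1 CPM in NC 1, 166 CPM in NC 2 and in NC 3, 238 CPM in Si-LIPG 1, 298 CPM in Si-LIPG 2 and 392 CPM in Si-LIPG 3. The means differed by a ratio of 2.25, and the log2 fold change was 1.15 with a standard error of 0.35 (edgeR, unadjusted p = 0.00515, adjusted p = 0.0620). Over 17 alternatives its adjusted p ran from 0.000439 to 0.998. It was 0.0330 with DESeq2, which the study names. The log2 fold change of TIMP3 was 0.10 with the percentage of reads on genes in the model.

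TIMP1 had 185 CPM in NC 1, 176.5 CPM in NC 2 and 243 CPM in NC 3, against 311, 238 and 287 CPM for Si-LIPG 1 to Si-LIPG 3. NC 3 exceeded Si-LIPG 2. The log2 fold change of TIMP1 was 0.47 with a standard error of 0.30 (edgeR, adjusted p = 0.426). TIMP2, the bridge in MMP2 activation, had 308 CPM in NC 1, 412.5 CPM in NC 2 and 342 CPM in NC 3, against 310.3, 393 and 464 CPM for Si-LIPG 1 to Si-LIPG 3. Its ranges coincide over most of their length. The log2 fold change of TIMP2 was 0.13 with a standard error of 0.31 (edgeR, adjusted p = 0.858), and it turned to -0.014 without Si-LIPG replicate 3 and to -0.44 with the percentage of reads on genes in the model.

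Among the proteases, MMP2 and MMP14 did not overlap between the groups and PLAU did. MMP2, a gelatinase, had 457 CPM in NC 1, 575 CPM in NC 2 and 583 CPM in NC 3, against 733, 687 and 727.5 CPM for Si-LIPG 1 to Si-LIPG 3. Its log2 fold change was 0.41 with a standard error of 0.30 (edgeR, adjusted p = 0.484). MMP14, its activator, had 104 CPM in NC 1, 135 CPM in NC 2 and 126 CPM in NC 3, against 143, 140.1 and 145 CPM for Si-LIPG 1 to Si-LIPG 3. The Si-LIPG values of MMP14 lay close together and just above NC 2, and the log2 fold change was 0.23 with a standard error of 0.31 (edgeR, adjusted p = 0.741), or 0.13 without NC replicate 1. PLAU had 117 CPM in NC 1, 238 CPM in NC 2 and 159 CPM in NC 3, against 255, 211 and 111 CPM for Si-LIPG 1 to Si-LIPG 3. Its lowest value was thus in Si-LIPG 3, and its log2 fold change was 0.15 with a standard error of 0.38 (edgeR, adjusted p = 0.868). The direction of PLAU turned without NC replicate 1 (-0.048) or Si-LIPG replicate 1 (-0.15).

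Of the 8 members besides TFPI2, 7 had enough counts for a test and 0 had an adjusted p under 0.05 with edgeR, where 6.51% of all tested genes did. At an unadjusted p under 0.05 edgeR called 1 of them, TIMP3, and DESeq2 called TIMP3 after adjustment. DESeq2 called 595 of the 14848 genes it fitted. The study's criterion, which adds a fold change above 1.5 to that unadjusted p, was met by TIMP3 alone and by 20.7% of all tested genes, 7.83% higher and 12.9% lower. Without overlap, 3 of the 7 (TIMP3, MMP2 and MMP14) were higher and 0 lower, against 15.2% and 13.4% of all tested genes. A log2 fold change above 0 was found for all 7 and for 58.4% of all tested genes, with medians of 0.41 and 0.16. Scaled to every read, all 7 were again above 0, as were 92.3% of all tested genes, with medians of 1.80 and 1.58. On that scale 6 of the 7, all but SERPINE2, were higher without overlap, against 51.9% of all tested genes. TIMP1, TIMP3 and MMP2 there had an adjusted p of 0.0462 each (edgeR), where 11.4% of all tested genes were called higher after adjustment and 46.1% at the study's criterion.

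**Figure D2:**
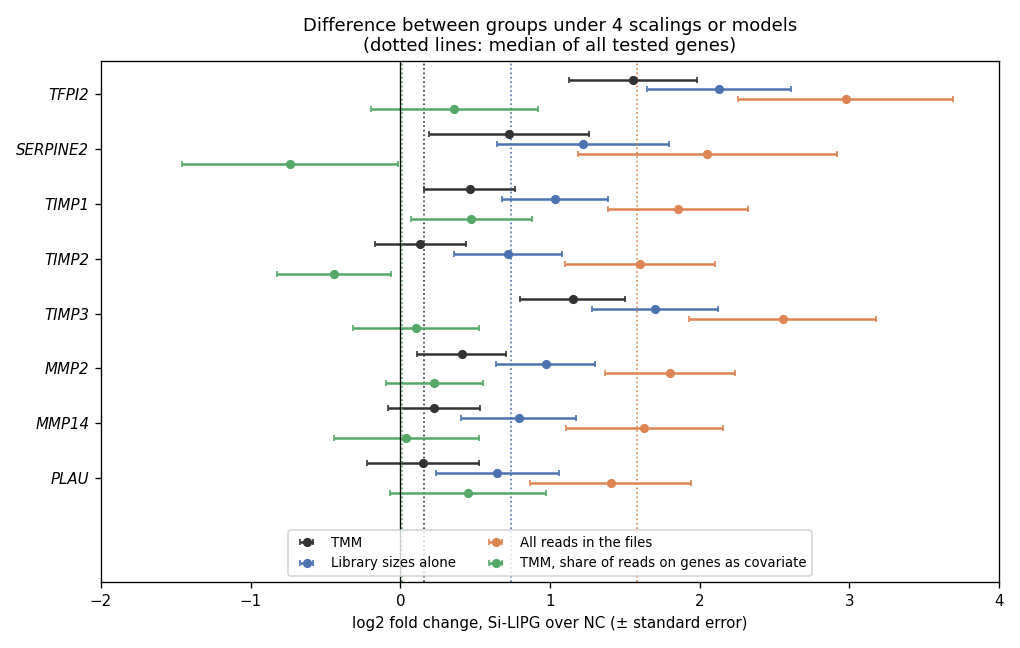
Log2 fold change of each member (Si-LIPG over NC, horizontal axis, bars ± standard error) under TMM, unadjusted library sizes, scaling to every read, and TMM with the percentage of reads on genes as a covariate. Dotted lines mark the median of all tested genes, which moves from 0.16 under TMM to 1.58 under scaling to every read. TFPI2 falls from 1.56 to 0.36 with the covariate, a percentage that does not overlap between the groups.

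A ratio of 2 members in the same library does not depend on how that library is scaled. Ratios were taken from the deposited FPKM values, which also correct for gene length. TFPI2 over TIMP2 was 0.255 in NC 1, 0.185 in NC 2 and 0.651 in NC 3, against 0.874, 1.06 and 0.973 for Si-LIPG 1 to Si-LIPG 3. TFPI2 over MMP14 was 0.314 in NC 1, 0.234 in NC 2 and 0.732 in NC 3, against 0.784, 1.24 and 1.29 for Si-LIPG 1 to Si-LIPG 3. Both ratios were higher in each Si-LIPG library than in each NC library, with a difference in mean log2 ratio of 1.63 for TIMP2 and 1.51 for MMP14. For PLAU, MMP2 and TIMP1 as the denominator the differences were 1.61, 1.33 and 1.28, and in each case NC 3 lay above Si-LIPG 1. Against TIMP3 the difference was 0.54, and the ratios of 0.572 to 1.67 in NC overlapped with those of 1.41 to 1.74 in Si-LIPG. Against SERPINE2 it was 0.37, and NC ratios from 0.158 to 2.005 lay on both sides of the Si-LIPG ratios from 0.893 to 0.969. Relative to the collagen genes COL1A1 and COL1A2 the differences for TFPI2 were 1.47 and 1.42, with overlap in both.

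**Figure D3:**
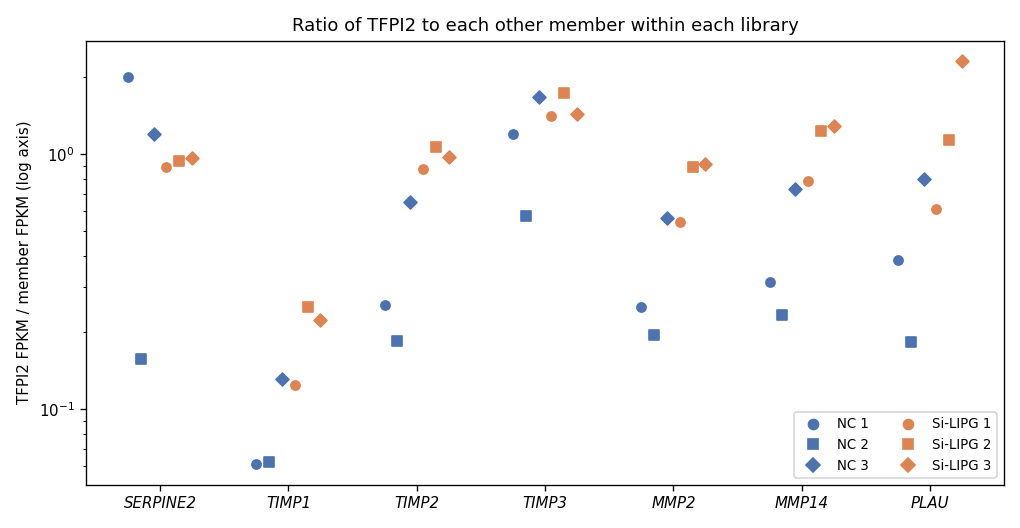
FPKM of TFPI2 divided by the FPKM of each other counted member (log axis), in NC (blue) and Si-LIPG (orange) libraries, with the replicate number shown by the marker. The Si-LIPG ratios are above all NC ratios for TIMP2 and MMP14, and NC 3 lies above Si-LIPG 1 for TIMP1, MMP2 and PLAU.

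Ratios among proteases, their inhibitors and PLAUR, the receptor of PLAU, were compared in 12 pairs without TFPI2. They were tested by two-sided exact permutation of the log2 ratio of FPKM values. With 3 against 3, 0.1 is the lowest p possible. The groups did not overlap in 4 pairs, each with an exact permutation p = 0.1 (adjusted p = 0.3 over the 12 pairs). Of these pairs, MMP2 over TIMP3 and MMP14 over TIMP3 set an enzyme against an inhibitor, and the others do not. All but MMP14 over MMP2 contain TIMP3, whose own values did not overlap, so they are not separate results. How often ratios of other tested genes do not overlap was not computed. MMP2 over TIMP3 was 4.77 in NC 1, 2.93 in NC 2 and 2.98 in NC 3, against 2.60, 1.95 and 1.57 for Si-LIPG 1 to Si-LIPG 3. MMP14 over TIMP3 was 2.85 ± 0.854 (SD, n = 3) in NC and 1.44 ± 0.347 (SD, n = 3) in Si-LIPG. Both proteases thus had lower values relative to TIMP3 in each Si-LIPG library, although their own CPM values were higher there than in each NC library. TIMP3 over TIMP2 was 0.308 ± 0.0898 (SD, n = 3) in NC and 0.636 ± 0.0377 (SD, n = 3) in Si-LIPG. MMP14 over MMP2 was 0.801 ± 0.0336 (SD, n = 3) in NC and 0.708 ± 0.0153 (SD, n = 3) in Si-LIPG. Relative to TIMP2, the bridge between them, MMP2 and MMP14 overlapped between the groups, with an exact permutation p of 0.2 for MMP2 over TIMP2 and 0.7 for MMP14 over TIMP2. Urokinase against its inhibitor overlapped too, with an exact permutation p of 0.2 for PLAU over SERPINE2.

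Levels of different members were ordered by mean FPKM. TIMP1 was highest in all 6 libraries, with 261.9 ± 88.3 FPKM (SD, n = 3) in NC and 528.9 ± 63.3 FPKM (SD, n = 3) in Si-LIPG. MMP2 followed with 68.8 ± 23.3 FPKM (SD, n = 3) in NC and 133 ± 15.3 FPKM (SD, n = 3) in Si-LIPG. In NC the next were TIMP2, PLAU, MMP14 and SERPINE2 at 66.4, 57.6, 55.1 and 48.6 FPKM, and neighbours in this order from MMP2 on lay within their spread. TFPI2 came in rank 7 of the 9 in NC, with 24.2 ± 19.0 FPKM (SD, n = 3), ahead of TIMP3 at 21.5 FPKM. In Si-LIPG it came in rank 5, with 106 ± 37.4 FPKM (SD, n = 3), behind SERPINE2 at 112 and TIMP2 at 108 FPKM and ahead of MMP14 at 94.1, PLAU at 89.3 and TIMP3 at 69.2 FPKM. Apart from TIMP1, the Si-LIPG mean of each counted member lay within the SD of TFPI2 from that of TFPI2.

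The course of TFPI2 over the 6 libraries was compared with that of 950 genes having a mean count of 100 or more, by Pearson's r of log2 CPM. MDH2, a mitochondrial malate dehydrogenase, was among the 5 most alike with r = 0.988. The other 4, including ENSCHIG00000017681 with r = 0.990, have no gene name in the files. Of the members, TIMP3 had r = 0.873, MMP2 0.845, TIMP1 0.844, MMP14 0.693, SERPINE2 0.533, TIMP2 0.361 and PLAU -0.032. These values are descriptions, and the libraries share the trend in the percentage of reads on genes.

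Reads of overlapping genes can be assigned to the wrong one, so neighbours were looked up in the RefSeq genes of assembly ARS1.2. TFPI2, TFPI, SERPINE2, MMP2, MMP14 and PLAU have none within 1 kb. TIMP1 has SYN1 and CT55, TIMP2 has CEP295NL and TIMP3 has SYN3 within that distance. SYN1 had 11 to 24 counts per library and SYN3 had at most 2, while TIMP1 had 57 to 393 and TIMP3 had 25 to 536. CT55 and CEP295NL were not analysed here. No coordinates are printed because the build of the files is not given in the sources used here.

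Beyond the members, 122 matrix proteases, inhibitors and partners were listed in 6 groups, of which 106 were found by name and 48 were tested. With edgeR 3 of the 48 fell and 0 rose at an adjusted p under 0.05, where 5.54% of all tested genes fell and 0.974% rose, and at the study's criterion 3 were higher and 5 lower, where 7.83% and 12.9% of all tested genes were. The median log2 fold change of the 48 was 0.15, near the 0.16 of all tested genes. Of the MMP family besides MMP2 and MMP14, 17 genes were found and 0 had enough counts for a test. Of these, 9 had 0 counts throughout, including the collagenases MMP1 and MMP13 and the gelatinase MMP9.

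The genes that fell were the metalloproteases ADAMTS4 and ADAM33 and the proprotein convertase PCSK7, each without overlap. ADAMTS4, an aggrecanase that TIMP3 blocks, had 172 CPM in NC 1, 72.1 CPM in NC 2 and 88.3 CPM in NC 3, against 24.8, 29.3 and 18.3 CPM for Si-LIPG 1 to Si-LIPG 3. Its log2 fold change was -2.17 with a standard error of 0.44 (edgeR, adjusted p = 0.0395). ADAM33, a membrane metalloprotease, had 279.5 ± 64.5 CPM (SD, n = 3) in NC and 99.6 ± 40.9 CPM (SD, n = 3) in Si-LIPG, with a log2 fold change of -1.49 and a standard error of 0.36 (edgeR, adjusted p = 0.0395). PCSK7, which cleaves precursor proteins in the secretory pathway, had 950.7 ± 404 CPM (SD, n = 3) in NC and 318 ± 125 CPM (SD, n = 3) in Si-LIPG, with a log2 fold change of -1.58 and a standard error of 0.38 (edgeR, adjusted p = 0.0395).

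The falls were measured relative to the other genes, and the counts themselves changed less. PCSK7 had 437 counts in NC 1, 410 in NC 2 and 442 in NC 3, against 409, 286 and 354 for Si-LIPG 1 to Si-LIPG 3, whose totals on genes were larger. Per 1e6 of every read, PCSK7 had 9.17 ± 0.756 (SD, n = 3) in NC and 8.63 ± 1.03 (SD, n = 3) in Si-LIPG, a log2 fold change of -0.089 (edgeR, adjusted p = 0.811). On that scale the log2 fold change was -0.090 for ADAM33 and -0.59 for ADAMTS4 (edgeR, adjusted p = 0.862 and 0.398). The median of all tested genes was 1.58 there, and the distance below it was about as large as under TMM. Such a distance hardly changes with the scaling, because all genes shift together. PCSK7 differed from the median by -1.67 when scaled to every read and by -1.74 under TMM, ADAM33 by -1.67 and -1.65, and ADAMTS4 by -2.17 and -2.33. Without NC replicate 1, NC replicate 2, Si-LIPG replicate 2 or Si-LIPG replicate 3, edgeR's adjusted p of these 3 genes lay between 0.0560 and 0.259. Their log2 fold changes over all 6 fits with a library left out were -1.73 to -2.40 for ADAMTS4, -1.28 to -1.89 for ADAM33 and -1.18 to -1.96 for PCSK7. With the percentage of reads on genes in the model they were -1.12, -0.41 and -0.20 (edgeR, adjusted p = 0.998 each). PCSK7 has RNF214, TAGLN and LOC102186229 within 1 kb. RNF214 had 206 to 297 counts per NC library and 197 to 221 per Si-LIPG library. TAGLN had 402 to 1038 counts per NC library and 1404 to 1939 per Si-LIPG library. ADAM33 and ADAMTS4 have no such neighbour.

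At the study's criterion, but with an adjusted p over 0.05 in edgeR, ADAM9, CTSB and CTSK were higher and PAPLN and ADAMTS15 lower. ADAM9, a membrane metalloprotease that sheds surface proteins, had 104 CPM in NC 1, 180.1 CPM in NC 2 and 69.3 CPM in NC 3, against 228, 296 and 296 CPM for Si-LIPG 1 to Si-LIPG 3. Its log2 fold change was 1.21 with a standard error of 0.37 (edgeR, adjusted p = 0.0602, and 0.0335 with DESeq2). CTSB and CTSK, lysosomal cathepsins of which CTSK degrades collagen, had log2 fold changes of 0.89 and 0.81 (edgeR, adjusted p = 0.122 and 0.239), and that of CTSK was -0.0018 with the percentage of reads on genes in the model. PAPLN, a matrix protein with a Kunitz domain as in TFPI2, had a log2 fold change of -1.54 (edgeR, adjusted p = 0.0648, and 0.0249 with DESeq2), and of -0.82 without NC replicate 1. It was 0.0038 when scaled to every read, which is -1.58 from the median of all tested genes there against -1.70 under TMM, and 0.57 with the percentage of reads on genes in the model. ADAMTS15, which the rule for named genes leaves out and which was chosen after its value was seen, had an adjusted p of 0.187 (edgeR), and its log2 fold change was 0.31 when scaled to every read, which is -1.28 from the median there against -1.16 under TMM. Within 1 kb ADAM9 has TM2D2, CTSK has ARNT and PAPLN has NUMB. TM2D2 had 5 to 16 counts per NC library and 12 to 49 per Si-LIPG library. The ranges were 1 to 4 and 16 to 33 for ARNT, and 2 to 31 and 34 to 67 for NUMB.

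By list, the 12 tested inhibitors of serine proteases had a median log2 fold change of -0.093, with 0 higher and 1 lower (PAPLN) at the study's criterion. RECK, SPOCK1, CST3 and CAST, the 4 tested inhibitors of metalloproteases or cysteine proteases, had a median of 0.40 with 0 at the criterion. The 19 tested genes of the ADAM, ADAMTS and BMP1 families had a median of 0.11, with 1 higher and 3 lower. PLAT, PLAUR, S100A10 and LRP1, the 4 tested genes of the plasminogen and tissue factor system, had a median of 0.29 with 0 at the criterion. The 9 other matrix proteases and activators had a median of 0.44, with 2 higher and 1 lower. F7 and F10, coagulation factors that TFPI acts on, had 0 counts throughout, and tissue factor (F3) had 5 to 17 counts per library.

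**Figure D4:**
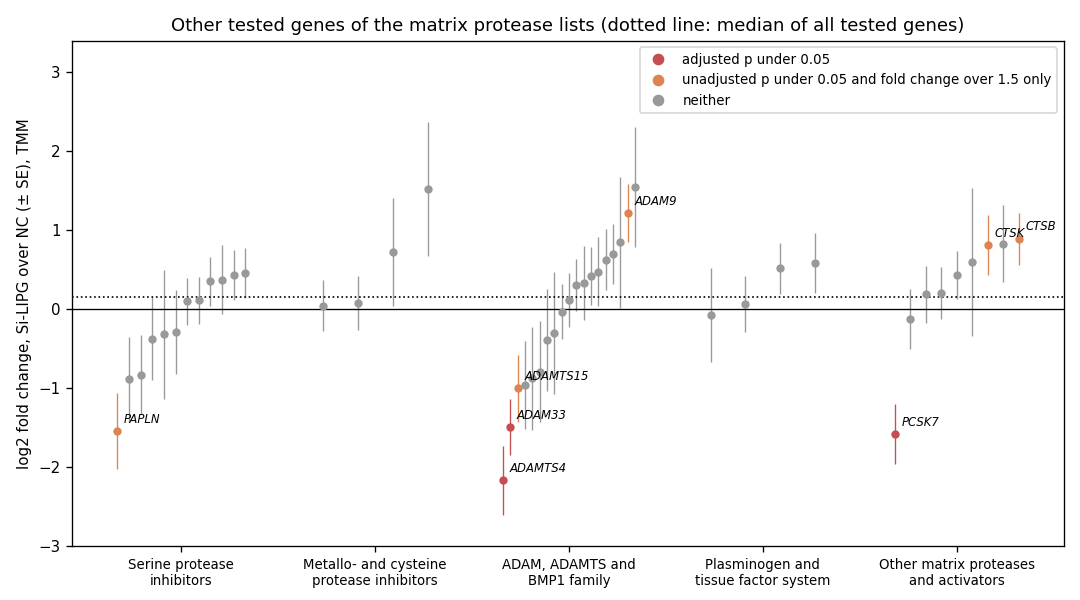
Log2 fold change under TMM (vertical axis, bars ± standard error) of the 48 tested genes of the wider lists, grouped by role, with the genes at the study's criterion named. ADAMTS4, ADAM33 and PCSK7 (red) have an adjusted p under 0.05 and lie below 0, and the dotted line marks the median of all tested genes at 0.16.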

How the data were processed

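Groups and replicate numbers came from the sample titles. The authors deposited raw counts of 27271 genes, 1 file per library, and FPKM values of the same genes in 1 table, which equal the counts divided by gene length and by the library's reads on genes. The submitters' processing notes name fastp, HISAT2, SAMtools and HTSeq, and neither versions nor the build are given in the sources used here. The 5 rows per library that name no gene held all but 0.997% to 2.88% of the reads and entered neither library sizes nor tests, except in the alternative scaled to every read. With edgeR 4.0.16 in R 4.3.3, filterByExpr kept 6574 genes, which were TMM-normalized and tested by the quasi-likelihood test with no covariate and Benjamini-Hochberg adjustment over all of them. DESeq2 1.42.0 and limma 3.58.1 on log2(FPKM + 1) or log2(FPKM + 0.1) were alternatives, beside other scalings and filters, a replicate block, a covariate for the percentage of reads on genes, and leaving out each library. For likeness to TFPI2, log2 CPM had a prior count of 2. Replicates differed beyond sampling noise, with chi-square over degrees of freedom from 4.17 to 13.9, so each was counted once. The edgeR and DESeq2 steps were tested on simulated counts, and limma on log2(CPM + 1) of these counts in place of log2 FPKM. That simulation did not model the percentage of reads on genes. Named genes were the members, list genes with an adjusted p under 0.05, of the list genes at the study's criterion those with the 4 greatest rises and the 4 greatest falls, the 5 genes most like TFPI2, neighbours within 1 kb, LIPG and ND6. Cell type markers are named too, and further list genes named beside a count were chosen after their values were seen. Members and lists were chosen with earlier results of these data known. Results for a few listed genes are not reported here.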

Additional observations from a re-analysis of the deposited data

How the results depend on the processing

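Over 17 alternatives the log2 fold change of TFPI2 stayed above 0, at 1.56 as reported. It was 2.98 scaled to all reads, 0.36 with the percentage of reads on genes in the model (the covariate below), and 2.28 and 2.34 with limma on log2(FPKM + 1) and log2(FPKM + 0.1), and between 1.28 and 2.30 when a library was left out. The cause of these shifts was not tested. The percentage of reads on genes did not overlap between the groups, so the covariate fit cannot fully separate it from the groups.

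Genes with an adjusted p under 0.05 numbered 428 of 6574. Of the same genes, 123 were called with library sizes alone, 750 over all reads and 925 with the replicate block. The calls were 595 of 14848 with DESeq2, 623 of 14848 without a filter and 714 of 2757 with at least 10 counts in every library. They were 0 with the covariate and 0 with either limma fit (1912 and 1671 at an unadjusted p under 0.05, against 187 with the covariate). Leaving out a library gave 0 to 648, with 0 without NC replicate 1, NC replicate 2, Si-LIPG replicate 2 or Si-LIPG replicate 3. The study's criterion gave 1361 genes, against 3032 over all reads, 2044 without a filter, 187 with the covariate and 844 to 1527 with a library left out. Higher genes were 515 of 1361 with TMM normalization, 1588 of 1983 with library sizes alone and 3030 of 3032 over all reads. They were 995 of 2044 without a filter, and 1509 of 1912 and 1251 of 1671 with limma. DESeq2 gave 1695 genes at an unadjusted p under 0.05. With the fold change added there were 1693, of which 629 were higher and 1064 lower in Si-LIPG. The paper reports the reverse balance, with more upregulated than downregulated genes between these groups. Whether the group labels or the direction of that comparison differ was not tested.

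Members called besides TFPI2 numbered 0, against 3 over all reads and 1, TIMP3, with library sizes alone, DESeq2, no filter, at least 10 counts in every library or the replicate block, and 0 to 1 with a library left out (1 without Si-LIPG replicate 1). Called genes of the wider lists numbered 3 of 48. They were 1 with library sizes alone, 11 over all reads and 8 with the replicate block, also of 48. The 3 of the main fit were lower in Si-LIPG. The 1 with library sizes alone and the 11 over all reads were higher, and the replicate block gave 4 higher and 4 lower. Fits with another filter covered other numbers of list genes. They called 5 of 82 with DESeq2, 5 of 82 without a filter and 7 of 36 with at least 10 counts in every library. DESeq2 and the fit without a filter each gave 1 higher and 4 lower, and the last gave 3 higher and 4 lower. The calls were 0 with the covariate or limma, and 0 to 4 with a library left out. Directions turned for SERPINE2 (-0.74), TIMP2 (-0.44), CTSK (-0.0018) and PAPLN (0.57) with the covariate, for PAPLN over all reads (0.0038, where all genes shifted upwards), for TIMP2 without Si-LIPG replicate 3 (-0.014, and up to 0.26 without another library), and for PLAU without NC replicate 1 (-0.048) or Si-LIPG replicate 1 (-0.15, and up to 0.46 without another library).

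Same-numbered libraries had deviations that correlated at 0.210, 0.0639 and 0.105, and those of differing number at -0.154 to 0.0910. NC 2 and Si-LIPG 2 correlated best with a library of another number. These values do not settle whether the numbers pair the libraries, and the main fit does not pair them. With the replicate block the log2 fold change of TFPI2 was 1.70, and the adjusted p was 0.000439 for TIMP3, 0.000420 for ADAM9, 4.04e-06 for PAPLN and 0.0159 for CTSB. Reads counted on genes were few, for a reason that was not tested, and a change of TFPI, LIPG or most MMP genes was not detectable at these counts.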

Other observations

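A pair of abundant genes of the wider lists, chosen after their values were seen, had smaller log2 fold changes than TFPI2. LRP1, the endocytic receptor that clears complexes of proteases and serpins, had 1460 ± 361 (SD, n = 3) and 2092 ± 173 (SD, n = 3) CPM, with a log2 fold change of 0.52 (adjusted p = 0.407 from edgeR). COL6A3, a collagen chain that ends in a Kunitz domain, had 2575 ± 299 (SD, n = 3) and 3475 ± 182 (SD, n = 3) CPM, with a log2 fold change of 0.43 (adjusted p = 0.496 from edgeR). In both genes every Si-LIPG library lay above every NC library, as for 15.2% of the tested genes.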
